A study of Mus musculus with 12 samples.

Results

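The D-type cyclin genes Ccnd1, Ccnd2 and Ccnd3, the kinase genes Cdk4 and Cdk6, and the inhibitor genes Cdkn1b, Cdkn2a, Cdkn2b, Cdkn2c and Cdkn2d were followed through 12 libraries of bulk RNA sequencing. They are 10 of the 33100 gene rows of the deposited count table and were taken by symbol for the roles of their proteins. All 10 were found, and 9 passed the filter on low counts. Cdkn2a did not pass it, and its reads are given without a test. Total RNA came from mouse cells that the labels call natural killer (NK) cells, lymphocytes that kill tumor cells. The 4 groups of 3 libraries were tumor cKO, tumor WT, spleen cKO and spleen WT. In cKO mice 1 gene was knocked out conditionally. That gene is not reported here, and no check of the genotype was made from it. The labels used here give no Cre driver, tumor type, strain, age or treatment. Nor do they say that replicates are different mice, so a p-value here reflects only how far these libraries differ, which may be technical.

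D cyclins are made when growth signals reach a resting cell, and they bind and switch on the kinases CDK4 and CDK6. These kinases phosphorylate the retinoblastoma protein RB, which then lets go of E2F factors, and E2F factors turn on the genes of DNA replication. The INK4 inhibitors (p16, p15, p18 and p19, from Cdkn2a, Cdkn2b, Cdkn2c and Cdkn2d) bind CDK4 and CDK6 directly, while p27, from Cdkn1b, binds whole cyclin and kinase complexes and holds back CDK2. In lymphocytes CDK6, cyclin D2 and cyclin D3 are known as the main forms, and p27 is abundant in resting lymphocytes.

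The tumor libraries held 15765906 to 37118494 counts and the spleen libraries 9542329 to 13753737. The label was set against 10 NK cell markers (Ncr1, Klrb1c, Klra8, Klra4, Klre1, Eomes, Gzma, Prf1, Cd244 and Klrd1), all with reads in every group. CPM are counts scaled to equal library totals after the totals were adjusted by composition factors (TMM). The summed NK cell markers stood at 39.4 to 54.2 CPM in tumor cKO and 59.6 to 198.5 in tumor WT. In spleen they stood at 1126 to 1434 in cKO and 1074 to 1453 in WT. Every tumor library thus lay below every spleen library in the markers of the labelled cell type. Of these 10 markers, 0 were called higher and 7 lower in tumor cKO than in tumor WT, with a median log2 of -1.47. Over all genes 21.6% were lower. Summed macrophage markers stood at 720.5 to 1948 CPM in tumor cKO and 5000 to 12230 in tumor WT, and 10 of the 11 tested were lower in tumor cKO, where 21.6% of all genes were lower. Summed T cell markers stood at 617 to 825 CPM in tumor cKO and 293 to 365 in tumor WT, with 5 of 11 higher and 1 lower, where 16.4% of all genes were higher. In spleen, 8 B cell markers summed to 1955 to 2295 CPM in cKO and 2174 to 2426 in WT, against 14.1 to 32.5 in tumor cKO and 5.12 to 19.8 in tumor WT. In such bulk samples, fewer cells of a type and less RNA per cell cannot be told apart. The part of these markers in the results below was not tested. Tumor WT library 2 had the highest macrophage sum of its group and tumor cKO library 3 the lowest of its own, so the counts below are also given without both.

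**Figure D1:**
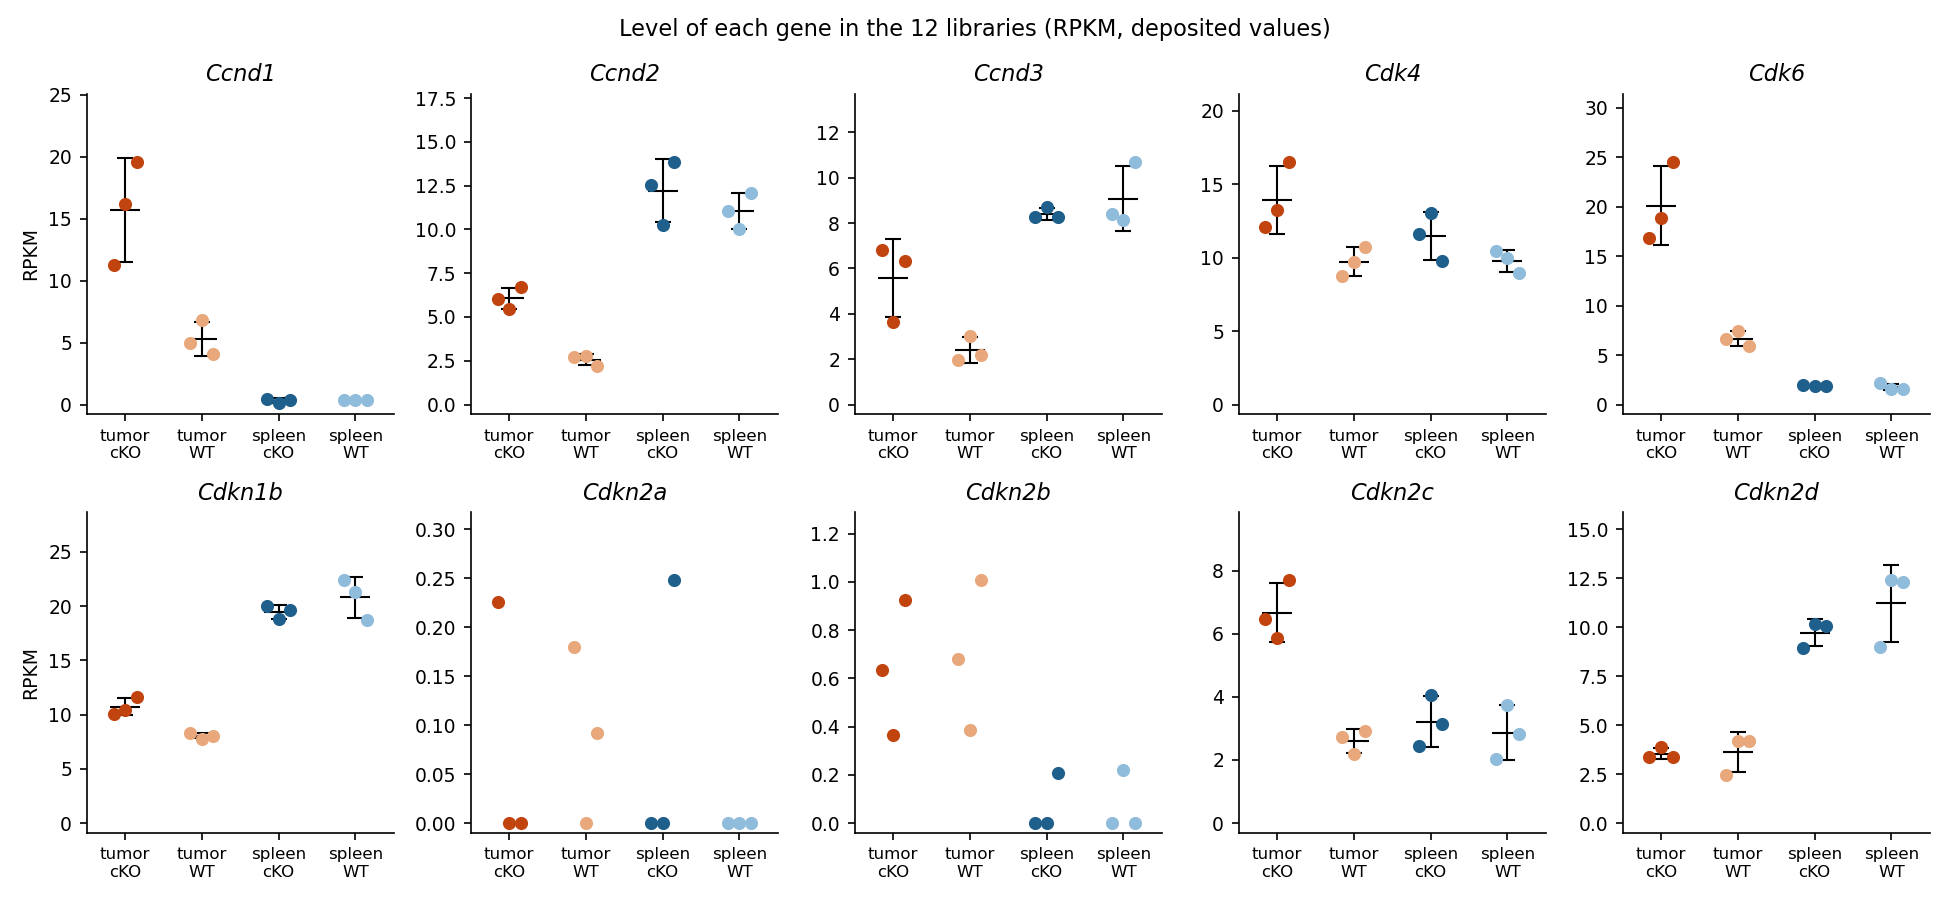
Deposited RPKM (reads per kilobase of gene length, scaled to the library total) of each gene in the 12 libraries, with a point for each library and, except for the sparsely read Cdkn2a and Cdkn2b, a bar for the mean and SD of 3 libraries. Ccnd1, Ccnd2, Ccnd3, Cdk4, Cdk6, Cdkn1b and Cdkn2c had every tumor cKO point above every tumor WT point on this scale, which has no composition factor, and Ccnd1 was near 0 in spleen.

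In tumor, the D cyclins, Cdk6 and the inhibitor gene Cdkn2c were higher in cKO than in WT, while Cdk4, Cdkn1b, Cdkn2b and Cdkn2d did not pass the test. Of the 9 members tested, 5 were called higher and 0 lower at an adjusted p under 0.05. Of all 16831 genes tested, 38% were called in this comparison, 16.4% higher and 21.6% lower. The median log2 fold change was 1.04 over the members and -0.12 over all genes. That median of all genes was 0.06 when libraries were scaled by their totals alone. Relative to it, the 5 members called were higher by log2 1.16 to 1.53 with the composition factors and by 1.16 to 1.54 without them. Without tumor WT library 2 and tumor cKO library 3, a choice made after seeing the data, 5 were again called higher and 0 lower.

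Ccnd1 (chr7:144929931-144939925, minus strand, GRCm38) encodes cyclin D1, the D cyclin best known from epithelial and other non-blood cells. Its levels were 51.5, 72.3 and 88.9 CPM in tumor cKO, 25.9, 33.5 and 21.5 CPM in tumor WT, 2.20, 0.601 and 1.71 CPM in spleen cKO, and 1.82, 1.81 and 1.89 CPM in spleen WT. No tumor cKO library overlapped a tumor WT library, every tumor library lay far above every spleen library, and the spleen groups overlapped. In tumor the log2 fold change of cKO over WT was 1.39 ± 0.28 (SE; edgeR adjusted p = 0.00179). In spleen it was -0.24 ± 0.38 (95% interval -1.06 to 0.58; edgeR adjusted p = 1). The spleen values rest on 6 to 30 counts a library. Exons of Ccnd1 share 23.4% of their bases with Oraov1 on the opposite strand, a gene with 431 to 1463 counts a library. The strand setting of the counting is not given in the sources used here, so reads in the shared bases cannot be assigned to either gene.

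Ccnd2 (chr6:127125162-127152193, minus strand) encodes cyclin D2, which lymphocytes make on activation by cytokines and antigen. Its levels were 54.8, 48.9 and 60.5 CPM in tumor cKO, 28.4, 27.2 and 23.1 CPM in tumor WT, 115.7, 92.4 and 127.6 CPM in spleen cKO, and 101.8, 93.0 and 113.0 CPM in spleen WT. Every spleen library lay above every tumor library, and tumor cKO lay between spleen and tumor WT with no overlap. In tumor the cKO over WT fold change was log2 1.06 ± 0.15 (edgeR adjusted p = 0.000192), and in spleen it was 0.13 ± 0.14 (interval -0.18 to 0.44; edgeR adjusted p = 1).

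Ccnd3 (chr17:47505051-47599691, plus strand) encodes cyclin D3, the D cyclin that developing T and B cells rely on. Its levels were 57.8, 30.2 and 53.5 CPM in tumor cKO, 19.1, 27.96 and 21.5 CPM in tumor WT, 71.2, 73.3 and 70.9 CPM in spleen cKO, and 72.0, 70.5 and 93.3 CPM in spleen WT. Tumor cKO library 2 was low in its group, just above the highest tumor WT library, and both tumor groups lay below spleen. The tumor fold change was log2 1.04 ± 0.22 (edgeR adjusted p = 0.00268), and the spleen one was -0.13 ± 0.22 (interval -0.60 to 0.34; edgeR adjusted p = 1). Its exons share 4.11% of their bases with Bysl on the opposite strand, and those of Ccnd2 share at most 3.95% with a neighbour. The 250 bases before its upstream start in RefSeq are shown because they held the forkhead motif GTAAACA, in capitals as its reverse complement. Windows were found for 8 members, not for Ccnd1 or Ccnd2, and no other of these windows held it. Of 32851 mouse windows of that length, 3.17% hold it on either strand.
Ccnd3, chr17:47504801-47505050, plus strand, GRCm38.p6: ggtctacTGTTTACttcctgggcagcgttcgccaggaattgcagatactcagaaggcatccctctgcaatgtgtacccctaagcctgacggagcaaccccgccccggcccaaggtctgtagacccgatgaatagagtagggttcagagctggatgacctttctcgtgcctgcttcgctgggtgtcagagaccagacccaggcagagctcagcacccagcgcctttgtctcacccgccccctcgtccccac

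Levels of different genes can be set side by side only per length, so the make-up of the D cyclins was taken from RPKM. It is a description without a test. The listed length of a gene holds every annotated exon base, whether or not its transcript is in use, and the shares depend on it. Ccnd1 held 57.0% ± 9.01 of the summed RPKM of the D cyclins in tumor cKO, 51.2% ± 2.86 in tumor WT, 1.53% ± 0.777 in spleen cKO and 1.94% ± 0.183 in spleen WT (SD, n = 3). Ccnd2 held 22.4%, 25.3%, 58.1% and 54.0% of it in the same groups, and Ccnd3 20.7%, 23.5%, 40.4% and 44.1%. Ccnd1 held the largest share in each of the 6 tumor libraries, though under 50% in tumor cKO library 1 (46.8%) and tumor WT library 3 (48.3%), and Ccnd2 did in each of the 6 spleen libraries. The tumor cKO and tumor WT shares of each D cyclin overlapped. The summed level itself was 27.4 ± 4.63 RPKM in tumor cKO, 10.3 ± 2.11 in tumor WT, 21.0 ± 1.71 in spleen cKO and 20.5 ± 2.42 in spleen WT. Every tumor WT library lay below every library of the other groups in this sum.

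**Figure D2:**
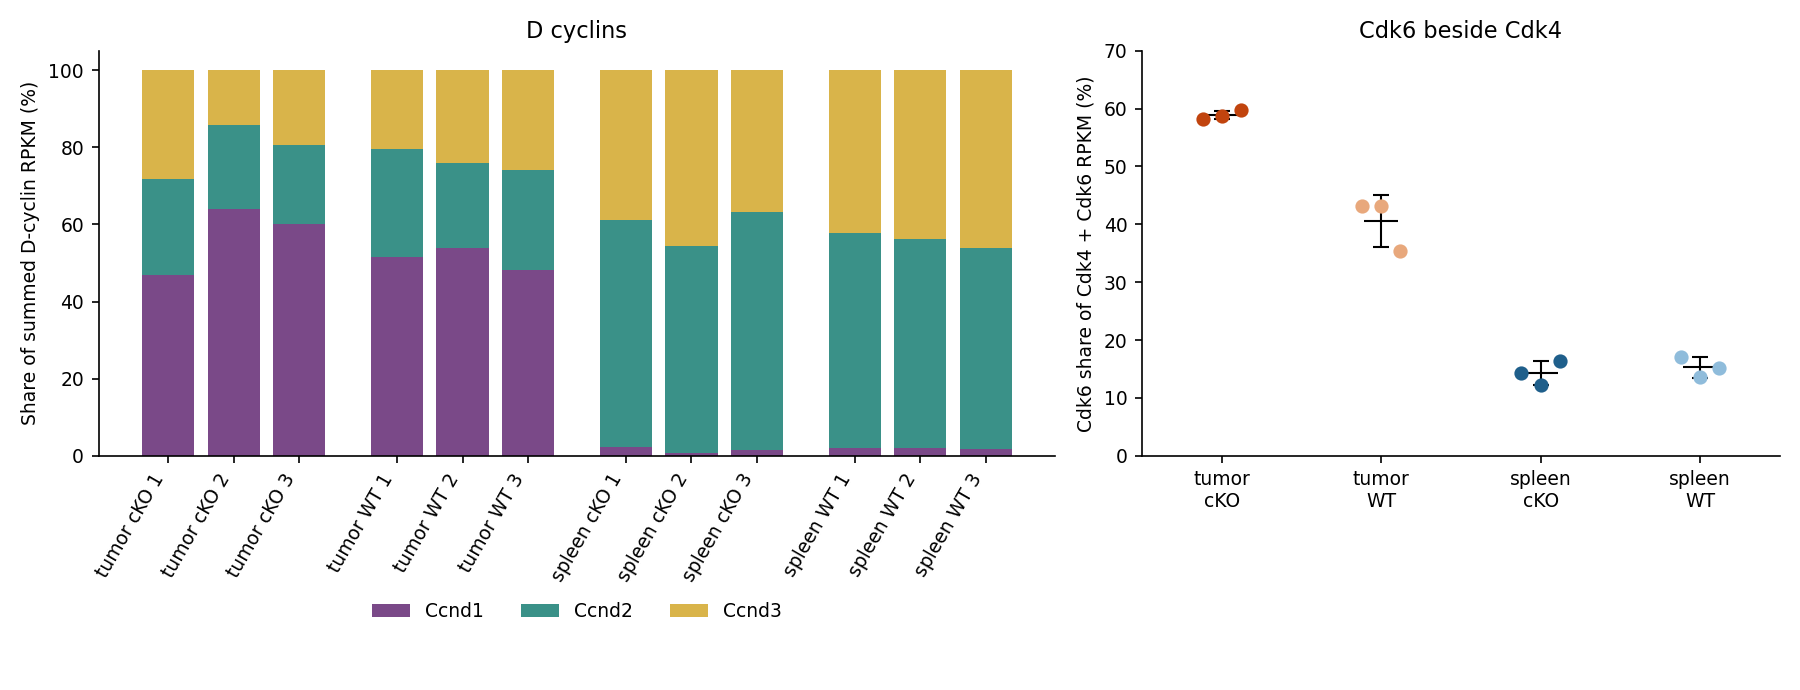
Left, share of Ccnd1, Ccnd2 and Ccnd3 in their summed RPKM, in percent, for each library; right, share of Cdk6 in the summed RPKM of Cdk4 and Cdk6, in percent, with a point for each library and a bar for the mean and SD of 3. Ccnd1 held 46.8% to 64.0% in tumor libraries and at most 2.24% in spleen libraries, and the Cdk6 share was 58.9% in tumor cKO against 40.6% in tumor WT.

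Cdk6 (chr5:3341485-3531008, plus strand) encodes the D-cyclin kinase most used by blood cells. It was read at 228.5, 250.04 and 330.3 CPM in tumor cKO, 102.6, 108.6 and 91.8 CPM in tumor WT, 26.7, 24.5 and 26.2 CPM in spleen cKO, and 29.6, 21.5 and 22.3 CPM in spleen WT. Tumor cKO lay above tumor WT and both lay above spleen, with no overlap, while the spleen groups overlapped. The cKO over WT fold change was log2 1.42 ± 0.16 in tumor (edgeR adjusted p = 5.35e-05), the smallest adjusted p of the members. In spleen it was 0.08 ± 0.16 (interval -0.27 to 0.42; edgeR adjusted p = 1).

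Cdk4 (chr10:127063534-127067920, plus strand) encodes the sister kinase, which most dividing cells use. It was read at 38.0, 40.8 and 51.7 CPM in tumor cKO, 31.4, 33.1 and 38.8 CPM in tumor WT, 37.0, 40.5 and 31.0 CPM in spleen cKO, and 33.2, 31.9 and 28.8 CPM in spleen WT. All 4 groups lay within a narrow band. Tumor cKO overlapped tumor WT in CPM, though not in RPKM, which has no composition factor. In RPKM the tumor cKO libraries held 12.1 to 16.6 and the tumor WT libraries 8.76 to 10.7. The tumor fold change was log2 0.34 ± 0.16 (interval 0 to 0.68; edgeR adjusted p = 0.106). It passed when libraries were scaled by totals alone (0.52; edgeR adjusted p = 0.0201). The spleen value was 0.21 ± 0.16 (edgeR adjusted p = 1). Exons of Cdk4 share 18.6% of their bases with Tspan31 on the opposite strand, which had 56 to 833 counts a library.

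Cdk6 made up 58.9% ± 0.747 of the summed RPKM of both kinases in tumor cKO, 40.6% ± 4.47 in tumor WT, 14.4% ± 2.06 in spleen cKO and 15.3% ± 1.80 in spleen WT (SD, n = 3). In RPKM the order of the kinases thus differed by group. In tumor cKO every library had more Cdk6 than Cdk4 in RPKM, and in the other groups every library had more Cdk4. The order rests on the listed lengths, 13989 bases for Cdk6 and 3249 for Cdk4, which hold every annotated exon base. In CPM, which ignores length, Cdk6 lay above Cdk4 in tumor WT too (means of 101.0 and 34.4) and below it in both spleen groups. The sum was 34.1 ± 6.31 RPKM in tumor cKO, 16.4 ± 0.881 in tumor WT, 13.4 ± 1.60 in spleen cKO and 11.6 ± 1.03 in spleen WT.

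The sequence before the RefSeq start of both kinase genes is shown because they are the only members whose window held CACGTG, the E-box that MYC and other E-box factors bind. The palindrome was found in 6.02% of the 32851 RefSeq windows of 250 bases. Cdk4 held 4 copies, a number reached or passed in 7 windows in all, and Cdk6 held 1. Capitals mark CACGTG, and each stretch is printed up to the first GENCODE exon base in its window. The Cdk4 stretch ends just before the gene, while the Cdk6 stretch lies inside the span of the Cdk6 row, which begins at an earlier annotated start. GC content of the full 250-base window was 64.4% for Cdk4 and 66.0% for Cdk6, against a median of 52.4% over all windows. A match of letters is not evidence that a factor binds there, and a link between copies and levels was not tested.
Cdk4, chr10:127063285-127063533, plus strand, GRCm38.p6: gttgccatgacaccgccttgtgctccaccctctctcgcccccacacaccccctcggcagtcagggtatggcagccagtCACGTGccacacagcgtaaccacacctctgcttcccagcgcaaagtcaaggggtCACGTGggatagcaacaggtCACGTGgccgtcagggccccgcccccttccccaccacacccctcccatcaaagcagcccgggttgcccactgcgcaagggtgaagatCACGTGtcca
Cdk6, chr5:3343643-3343731, plus strand, GRCm38.p6: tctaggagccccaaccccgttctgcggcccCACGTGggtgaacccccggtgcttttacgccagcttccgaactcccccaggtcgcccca
RefSeq windows were found for 8 of the 10 members. Ccnd1 and Ccnd2 had none, so no motif was searched before these D cyclin genes. Besides the motifs above, the E2F motifs TTTCCCGC (0.895% of windows) and TTTGGCGC (0.417%) and the STAT motif TTCNNNGAA (7.02%) were searched on both strands. Of these, TTTCCCGC was found once, before the upstream start of Cdkn2a, and the others in no member window.

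Cdkn1b (chr6:134920401-134925513, plus strand), which encodes p27, had the highest level per length of these genes in spleen. Its levels were 44.5, 45.1 and 50.8 CPM in tumor cKO, 41.8, 37.1 and 41.0 CPM in tumor WT, 89.4, 81.8 and 87.4 CPM in spleen cKO, and 99.8, 95.8 and 84.5 CPM in spleen WT. Tumor cKO lay above tumor WT by a narrow margin, and both tumor groups lay below spleen without overlap. The cKO over WT fold change was log2 0.23 ± 0.11 in tumor (interval -0.02 to 0.47; edgeR adjusted p = 0.130) and -0.11 ± 0.11 in spleen (interval -0.36 to 0.13; edgeR adjusted p = 1). With scaling by totals alone the tumor value was 0.41 and passed (edgeR adjusted p = 0.0107).

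Among the INK4 genes, Cdkn2c (chr4:109660876-109667189, minus strand), which encodes p18, was the only one called in tumor. Its levels were 16.8, 14.9 and 19.9 CPM in tumor cKO, 8.08, 6.15 and 8.74 CPM in tumor WT, 6.46, 10.4 and 8.24 CPM in spleen cKO, and 5.31, 9.94 and 7.56 CPM in spleen WT. Tumor cKO stood above every other library, and the other 3 groups overlapped. The tumor fold change was log2 1.17 ± 0.27 (edgeR adjusted p = 0.00395), and the spleen one was 0.13 ± 0.27 (interval -0.45 to 0.72; edgeR adjusted p = 1). An inhibitor thus stood among the members that rose with the D cyclins and Cdk6.

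Cdkn2d (chr9:21288410-21291407, minus strand), which encodes the INK4 protein p19, had 5.12, 5.77 and 5.11 CPM in tumor cKO, 4.25, 6.94 and 7.35 CPM in tumor WT, 13.8, 15.3 and 15.5 CPM in spleen cKO, and 13.8, 19.3 and 19.2 CPM in spleen WT. The genotypes overlapped in both tissues, and every spleen library lay above every tumor library. The cKO over WT fold change was log2 -0.22 ± 0.23 in tumor (interval -0.72 to 0.29; edgeR adjusted p = 0.491) and -0.23 ± 0.23 in spleen (interval -0.72 to 0.27; edgeR adjusted p = 1).

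Cdkn2b (chr4:89306289-89311032, minus strand), which encodes p15, had 20, 8 and 32 counts in tumor cKO, 18, 20 and 26 counts in tumor WT, 0, 0 and 4 counts in spleen cKO, and 0, 4 and 0 counts in spleen WT. Its tumor level was 0.858 ± 0.379 CPM in cKO and 1.06 ± 0.502 CPM in WT (SD, n = 3), and the groups overlapped. The tumor fold change was log2 -0.27 ± 0.91, with an interval of -2.24 to 1.70 that holds large changes in either direction (edgeR adjusted p = 0.843). Its neighbour Cdkn2a (chr4:89274471-89294653, minus strand), whose row holds both p16 and the Arf protein made from another first exon, had 6, 0 and 0 counts in tumor cKO, 4, 0 and 2 counts in tumor WT, 0, 0 and 4 counts in spleen cKO and 0 counts in all 3 spleen WT libraries. A total of 0 counts in spleen WT allows a level of up to 0.081 CPM, for counting error only and if counts are independent. Low counts were mostly even, so the limit may be higher, and no difference was detectable at this depth.

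**Figure D3:**
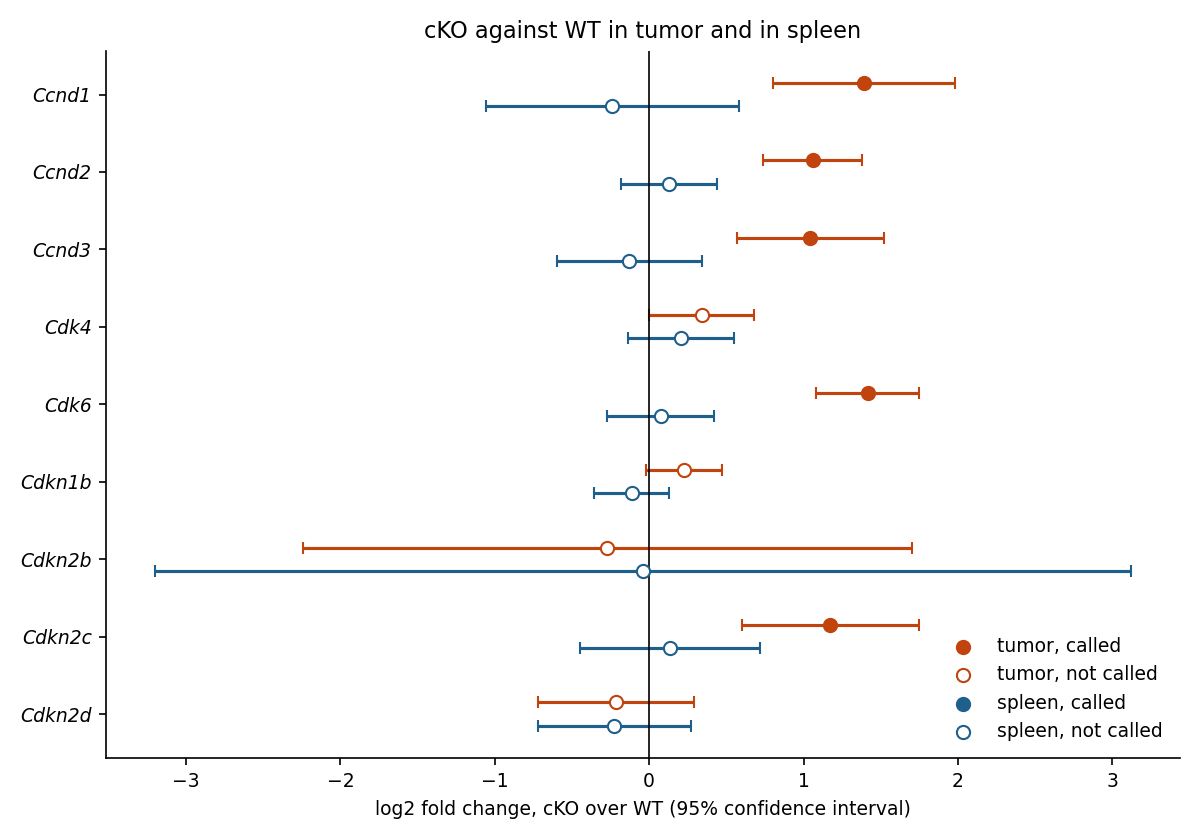
Log2 fold change of cKO over WT with its 95% interval for the 9 tested genes, in tumor (upper row of each gene) and in spleen (lower row); filled points passed an adjusted p of 0.05. The 5 filled points, Ccnd1, Ccnd2, Ccnd3, Cdk6 and Cdkn2c, are all from tumor and lie between 1.04 and 1.42, and the widest intervals are those of Cdkn2b.

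In RPKM, Cdk6 led in tumor cKO with 20.1 ± 3.99, followed by Ccnd1 with 15.7 ± 4.19 and Cdk4 with 13.96 ± 2.32. These overlapped from each to the next, while Cdk4 and Cdkn1b (10.7 ± 0.792) did not. In tumor WT the order was Cdk4 (9.73 ± 0.971), Cdkn1b (8.06 ± 0.266), Cdk6 (6.65 ± 0.767) and Ccnd1 (5.29 ± 1.38), and among these only Cdk6 and Ccnd1 overlapped. In spleen cKO Cdkn1b led with 19.5 ± 0.628, ahead of Ccnd2 with 12.2 ± 1.82, Cdk4 with 11.5 ± 1.64, Cdkn2d with 9.73 ± 0.699 and Ccnd3 with 8.42 ± 0.269. In spleen WT Cdkn1b stood at 20.8 ± 1.90, and Cdkn2d, Ccnd2, Cdk4 and Ccnd3 followed at 11.2 ± 1.95 down to 9.08 ± 1.42, each overlapping the next. Cdk6 was 7th in both spleen groups. The INK4 genes and Cdkn1b summed to 21.6 ± 1.71 RPKM in tumor cKO, 15.1 ± 1.04 in tumor WT, 32.6 ± 1.05 in spleen cKO and 35.0 ± 2.37 in spleen WT.

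Likeness of pattern was measured as the root mean square difference between log2 CPM profiles over the 12 libraries, each centred on its own mean, over 9886 genes. The nearest genes to Cdk6 were Arl14ep, Bag2 and Lat, at 0.21 to 0.22 against a median of 1.499 over all genes, and those to Ccnd1 were Lrp8, Trav13n-4 and Tnfsf15, at 0.24 to 0.34 against 2.28. The nearest to Ccnd2 were Dnajc9, Hmgn1 and Tcf3 (0.13 to 0.16, median 0.98), to Ccnd3 Cep97, Jade2 and Usp11 (0.18 to 0.20, median 0.89), and to Cdk4 Dnttip2, Rabl6 and Dhx15 (0.13, median 0.57). Cdkn1b had the closest neighbours of all, Srcap, Chd8 and Sept11 (0.07 to 0.09, median 0.73). For Cdkn2c they were Mrps22, Rpf2 and Mthfd1l (0.16 to 0.22, median 0.77), for Cdkn2d Dbnl, Tusc2 and Zfp758 (0.18 to 0.19, median 0.88), and for the sparsely read Cdkn2b Manf, Phf5a and Rpl35a (0.25 to 0.26, median 0.89). Members were left out of this search.

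In spleen, 0 of the 9 members were called between cKO and WT, where 0.0297% of all genes were called, so the count is that of nearly every gene. The members' log2 fold changes lay between -0.24 and 0.21, with a median of -0.04 over them and 0.00 over all genes. With unadjusted p under 0.05, edgeR gave 784 genes, and none of the 9 members was among them. DESeq2 and limma called 0 members too.

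Whether the cKO effect differed between the tissues was tested as the tumor effect minus the spleen effect. Of the 9 members, 4 were called, all higher in tumor, where 18.3% of all genes were called, 7.68% higher and 10.6% lower. The difference was log2 1.63 ± 0.47 for Ccnd1 (edgeR adjusted p = 0.0293), 0.94 ± 0.21 for Ccnd2 (0.00883), 1.17 ± 0.31 for Ccnd3 (0.0204) and 1.34 ± 0.22 for Cdk6 (0.00312). For Cdkn2c it was 1.04 ± 0.38 and did not pass (edgeR adjusted p = 0.0725); it passed with DESeq2 (adjusted p = 0.0402). The members' median was 0.94, against -0.10 over all genes. Ccnd1 did not pass without tumor cKO library 3, tumor WT library 1 or 3, spleen cKO library 3, or any 1 spleen WT library, with edgeR adjusted p of 0.0523 to 0.0654. Without spleen WT library 3, Ccnd3 did not pass either (edgeR adjusted p = 0.0545), and 2 members were called.

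Between the tissues the members moved in both directions in each genotype. In cKO, 8 of 9 members were called for tumor against spleen, 4 higher and 4 lower, where 60.5% of all genes were called, 31.7% higher and 28.8% lower. In WT, 7 of 9 were called, 3 higher and 4 lower, where 62% of all genes were called, 33.9% higher and 28.1% lower. With most genes called in both comparisons, the counts say little about the members, and the sizes are given as a description. Ccnd1 was higher in tumor by log2 5.51 ± 0.35 in cKO and 3.87 ± 0.33 in WT (edgeR adjusted p = 5.68e-08 and 6.3e-07). Cdk6 was higher by 3.39 ± 0.17 in cKO and 2.04 ± 0.16 in WT (8.38e-09 and 2.98e-07). Ccnd2 had log2 values of -1.03 ± 0.15 in cKO and -1.97 ± 0.15 in WT, and Ccnd3 -0.60 ± 0.22 and -1.78 ± 0.23, both lower in tumor. The Ccnd3 call in cKO (edgeR adjusted p = 0.0287) was lost without tumor cKO library 2, where the value was -0.36 (0.112), and without any 1 spleen cKO library (0.0623 to 0.0691).

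Of the 4 tested inhibitors, Cdkn1b and Cdkn2d were lower in tumor than in spleen and Cdkn2b was higher, in both genotypes. Cdkn1b had log2 -0.88 ± 0.11 in cKO and -1.22 ± 0.12 in WT, and Cdkn2d -1.48 ± 0.24 and -1.49 ± 0.23, each called by edgeR. Cdkn2c was higher in tumor in cKO by 1.04 ± 0.27 (edgeR adjusted p = 0.00431) and stood at 0.01 ± 0.27 in WT (0.989). Cdkn2b was called higher in both genotypes (2.99 ± 1.17 and 3.22 ± 1.17; edgeR adjusted p = 0.0400 and 0.0281), on 4 spleen counts per group; without single libraries of the groups compared its adjusted p reached 0.131 in cKO and 0.0993 in WT. Cdk4 was called in neither genotype, at 0.27 ± 0.16 and 0.14 ± 0.16. The spleen libraries carried the B cell markers given above and the tumor libraries the macrophage markers. Of 7 tested fibroblast markers, 6 were higher in tumor than in spleen in cKO and 7 in WT, with 0 lower. Of 8 endothelial markers, 7 were higher in cKO and 6 in WT, with 1 lower in each. Of 4 tested epithelial markers, 1 was higher and 1 lower in cKO, and 2 were higher and 0 lower in WT. Over all genes 31.7% were higher in cKO and 33.9% in WT. The part of all these markers in the differences between tissues was not tested.

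The genes that act around the cyclin D kinases were taken in 5 lists, chosen for their roles with earlier results of these data known. In the CDK2 step, which follows CDK4 and CDK6, 5 of 7 genes were higher in tumor cKO than in tumor WT and 1 was lower. Over all genes 16.4% were higher and 21.6% lower. The median log2 of the list was 1.19, against -0.12 over all genes. Ccne1 and Ccne2, the E cyclins, rose by 1.85 ± 0.25 and 1.70 ± 0.22, Cdc25a, the phosphatase that activates CDK2, by 1.34 ± 0.24, and Cdk2 by 1.19 ± 0.15 (edgeR adjusted p at most 0.000879). Cdkn1a, which encodes the CDK inhibitor p21, fell by 1.09 (edgeR adjusted p = 0.00123). Its levels were 85.4 ± 13.3 CPM in tumor cKO, 181.3 ± 8.98 in tumor WT, 0.737 ± 0.408 in spleen cKO and 0.618 ± 0.322 in spleen WT (SD, n = 3). Macrophage markers were lower in tumor cKO as well, and their part in the Cdkn1a value was not tested.

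Of the pocket proteins (the RB family) and E2F factors, 9 of 13 were higher in tumor cKO and 1 was lower. Over all genes 16.4% were higher and 21.6% lower, and the median log2 of the list was 0.77. E2f7, E2f2 and E2f8 rose by 1.83 ± 0.42, 1.62 ± 0.20 and 1.53 ± 0.29, and Rbl1, which encodes the pocket protein p107, by 1.42 ± 0.22 (edgeR adjusted p at most 0.00460). Rb1 itself was at 25.2 ± 0.579 CPM in tumor cKO and 30.3 ± 4.93 CPM in tumor WT and was not called (edgeR adjusted p = 0.142); it is named for its role, after its values were seen. The 1 lower gene was E2f5, at log2 -1.28 ± 0.39; it is named after its values were seen, its mean level being under the limit for named genes, and it was not called without tumor WT library 2 and tumor cKO library 3.

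Of 14 tested genes that activate, fold or degrade cyclin D, CDK4, CDK6 or p27, 5 were higher and 1 was lower, with a median log2 of 0.28. Over all genes 38% were called, 16.4% higher and 21.6% lower. The number called in either direction is thus near the background and is no result about the list. The lean to higher genes was not tested. Skp2, which marks p27 for destruction, rose by 1.91 ± 0.39, and Hsp90ab1, a chaperone of CDK4, by 0.89 ± 0.16. Mnat1 and Ccnh, partners of the CDK-activating kinase, were higher by 0.72 ± 0.17 and 0.63 ± 0.18. Gsk3b, a kinase that marks cyclin D1 for export and breakdown, fell by 0.41 (edgeR adjusted p = 0.0291). With scaling by totals alone, 7 were higher and 0 lower, so the lower call of Gsk3b depends on the scaling.

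Of 10 transcription and RNA-binding factors known to act on D cyclins or their inhibitors, 4 were higher and 1 was lower, with a median log2 of 0.14. With 38% of all genes called, 16.4% higher and 21.6% lower, the number called in either direction is again not far from the background. The lean to higher genes was not tested here either. Myb, a factor of immature blood cells, had 970 ± 171.4 CPM in tumor cKO, 266 ± 14.1 in tumor WT, 32.9 ± 11.6 in spleen cKO and 30.7 ± 14.5 in spleen WT (SD, n = 3). Its tumor fold change was log2 1.87 ± 0.31 (edgeR adjusted p = 0.000740). Foxm1, a factor of G2 genes, rose by 1.73 ± 0.29, Bmi1, a repressor of Cdkn2a, by 0.99 ± 0.13, and Myc by 0.90 ± 0.16. Zfp36l1, an RNA-binding protein that destabilises cell cycle messages in lymphocytes, fell by 1.74 (edgeR adjusted p = 7.62e-05), to 32.9 ± 10.4 CPM in tumor cKO against 109 ± 15.5 in tumor WT.

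Markers of S phase and mitosis were higher in tumor cKO for 14 of 15 genes and lower for 0, with a median log2 of 1.70. Over all genes 16.4% were higher and 21.6% lower. Aurkb, a mitotic kinase, rose by 2.20 ± 0.38, Rrm2, which makes deoxynucleotides, by 2.09 ± 0.26, Top2a, a topoisomerase of dividing cells, by 1.95 ± 0.21, and Mki67, a proliferation marker, by 1.89 ± 0.19 (edgeR adjusted p at most 0.000789). In spleen 0 genes were called in each of the 5 lists. With 0.0297% of all genes called there, this count says little about the lists. The spleen median was 0.51 for S phase and mitosis and -0.02 to 0.22 for the other lists, against 0.00 over all genes. The higher spleen median of S phase and mitosis was not tested. Without tumor WT library 2 and tumor cKO library 3 the tumor counts were 4 higher and 1 lower of 7 in the CDK2 step, 9 and 0 of 13 for the pocket proteins and E2F factors, 4 and 1 of 14, 4 and 1 of 10, and 15 and 0 of 15 for S phase and mitosis.

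**Figure D4:**
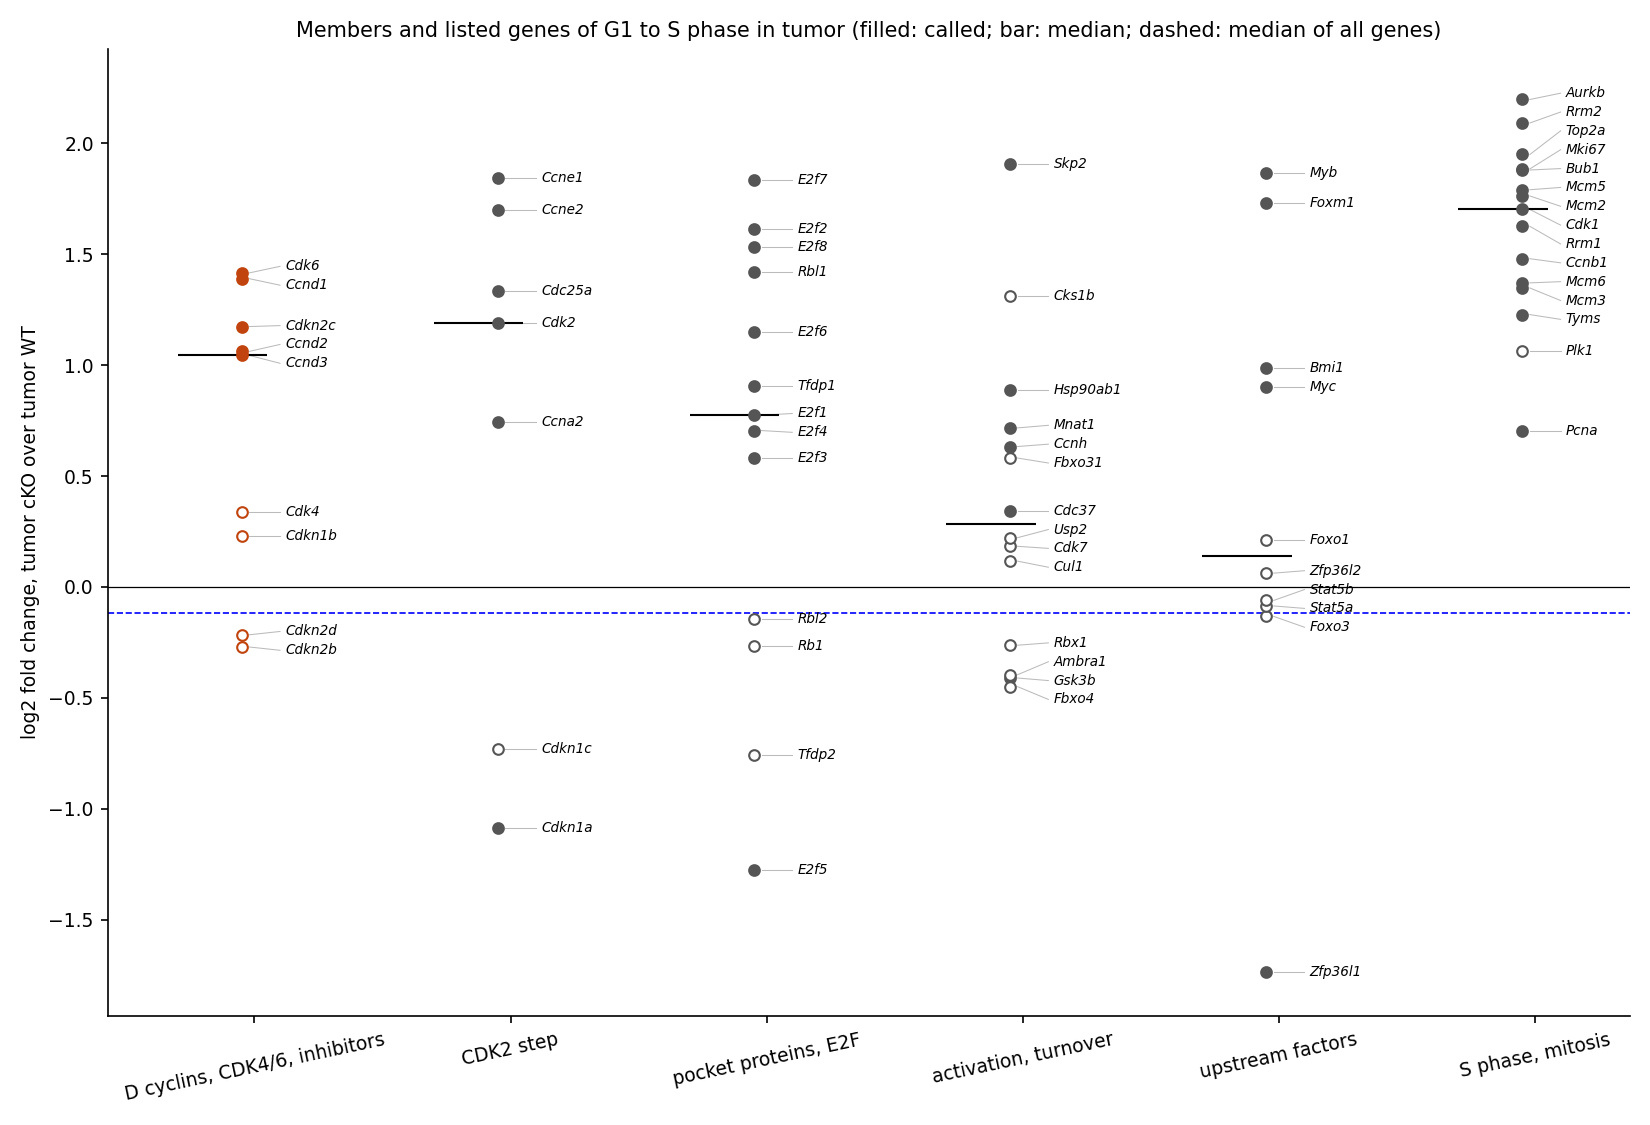
Log2 fold change of tumor cKO over tumor WT for the 9 tested genes of the cyclin D step (orange) and the genes of the 5 surrounding lists (grey), with filled points called, a bar for each list's median and a dashed line for the median of all genes, -0.12. The medians are 1.04 for the cyclin D step, 1.19 for the CDK2 step and 1.70 for S phase and mitosis, and Cdkn1a, E2f5, Gsk3b and Zfp36l1 are the filled points below 0.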

How the data were processed

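Reads were aligned by the authors to mm10 using TopHat2 2.0.6, per the submitters' processing notes. How reads were counted, strand included, is not given in the sources used here. Deposited were a table of raw counts per gene and a table of RPKM values, which equalled count over listed length and library total within a relative tolerance of 0.001 in 100% of nonzero values. Even numbers made up 68.8% to 73.3% of the counts from 1 to 49, so counting noise may exceed that of single reads. Positions are those of the count table and matched GENCODE vM21 for every member except Cdkn2b.

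Counts were tested in R 4.3.3 with edgeR 4.0.16: filterByExpr, TMM factors (0.896 to 1.055), 1 mean for each of the 4 groups over all 12 libraries, robust quasi-likelihood F-tests, two-sided, with Benjamini-Hochberg adjustment over 16831 genes and a threshold of 0.05. The common dispersion was 0.0801 with 8 residual degrees of freedom. CPM use TMM-scaled totals, ± after a level is the SD and after a fold change the SE. DESeq2 1.42.0 and limma 3.58.1 on log2(RPKM + 0.5) were alternatives, and the script was tested on simulated counts. A floor of 3 counts over a group stood for 0 counts. Named were all members and, from each list, up to 4 genes called in each direction whose mean log2 CPM was 2 or more; Rb1 and E2f5 are exceptions. The members and lists were chosen with earlier results of these data known. Replicate numbers were not used to pair samples in the main fit. Deviations from group means of same-numbered libraries correlated at -0.073 to 0.082, which cannot show whether they share an animal or day. Sequences are from RefSeq, GRCm38.p6; where members had several starts, all windows were searched.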

Additional observations from a re-analysis of the deposited data

Results flagged for a closer look

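The cKO effect on 4 of these genes differed between tumor and spleen by the test of the difference itself; each was called higher in tumor and not called in spleen. The tumor effect minus the spleen effect was log2 1.63 for Ccnd1, 1.34 for Cdk6, 1.17 for Ccnd3 and 0.94 for Ccnd2, with edgeR adjusted p of 0.0293, 0.00312, 0.0204 and 0.00883. Ccnd1 lost this call with the replicate block (edgeR adjusted p = 0.0528) and without any of 7 single libraries (0.0523 to 0.0654), and Ccnd3 lost it without spleen WT library 3 (0.0545). Every tumor cKO library lay above every tumor WT library for each of the 4 genes. Macrophage markers also differed in this comparison, with 9 of 11 called lower and 0 higher, where 10.6% of all genes were called lower, and their part in the result was not tested.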

How the results depend on the processing

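The 5 members called in tumor kept their call and direction under all 21 alternatives, and 5 to 7 members were called, the most with scaling by totals alone and with limma, which added Cdk4 and Cdkn1b. In spleen 0 were called under every alternative. For tumor against spleen, 6 to 8 members were called in cKO and 6 or 7 in WT. For the difference of effects 2 to 6 were called, and leaving out 1 library gave 2 to 4. With the replicate block, 5, 0, 8, 6 and 3 members were called for tumor, spleen, tumor against spleen in cKO and in WT, and the difference; Ccnd1 in the difference (log2 1.62, edgeR adjusted p = 0.0528) and Cdkn2b in WT tumor against spleen (3.07, 0.0522) lost their calls, and no other call changed. The labels do not say that a number marks a shared animal or day, and the block gave Cdkn2b 0.10 for the difference. The Cdk6 share was 18.3 percentage points higher in tumor cKO than in tumor WT by RPKM and 11.6 by CPM, which ignores length.

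Signs changed only for values that were never called, and the cause was not tested. Leaving out 1 library gave Cdkn2b -0.63 to 0.14 in tumor, -4.00 to 3.97 in spleen and -4.23 to 3.74 for the difference. In spleen it gave Ccnd1 -0.60 to 0.088, Ccnd3 -0.20 to 0.011, Cdk6 -0.009 to 0.24 and Cdkn2c -0.069 to 0.38. For the difference it gave Cdk4 -0.005 to 0.25 (-0.028 without tumor WT library 2 and tumor cKO library 3) and Cdkn2d -0.19 to 0.17, and for Cdkn2c in WT tumor against spleen -0.21 to 0.25. With limma Cdkn2d in tumor was 0.003 and 0.007 at pseudocounts of 0.5 and 0.1. For tumor against spleen in WT, Cdk4 was -0.009 with totals alone and -0.009 and -0.010 with limma, and Cdkn2c -0.141, -0.091 and -0.100. Among all genes in spleen, edgeR called 5, against 230 without the filter and 40 with DESeq2. Depth limits Cdkn2a, Cdkn2b and spleen Ccnd1.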
